A study of Mus musculus with 18 samples.

Results

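The cerebral cortex of mice labelled Mcph1KO was compared with WT cortex with the libraries of 4 stages in a single model, and the result is described here across all expressed genes. The comparison used every cortex library of the series, 16 of 18, with 8 labelled Mcph1KO and 8 WT. The 2 libraries of wild-type embryonic stem cells were left out. Both genotypes came from male C57BL/6J mice. The stages are labelled E17.5 (embryonic), P4, A6w and A18w, and each genotype had 2 libraries per stage, numbered 1 and 2. The labels give the genotype as a knockout of Mcph1 and do not describe the allele. They also do not say whether 2 libraries of a group are separate animals, so the p-values measure only the spread between these libraries, which may be technical.

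MCPH1 (microcephalin) is a nuclear protein that binds condensin II and holds back chromosome condensation before mitosis, and it also acts in the DNA damage response. Human mutations in the gene cause primary microcephaly, a small but otherwise ordered cerebral cortex. In the developing cortex, radial glia and intermediate progenitors divide to give the neurons of the deep and upper layers, and condensins shape the chromosomes of those dividing cells.

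The cortex libraries held 23654447 to 32041849 estimated counts. Of 54281 gene IDs, 19199 had enough counts to be tested. Levels are given in CPM, which are counts scaled to library size and not to gene length, so they are compared between libraries and not between genes. Markers of cortical projection neurons were present in every library, among them Neurod2 at 103 to 486 CPM and Tbr1 at 140 to 353 CPM, whereas Emx1 ranged from 6.38 to 52.1 CPM. In each of the 8 pairs of a stage and a number, the Mcph1KO library was set against the WT library. A genotype difference shared by the 8 pairs was fitted, and edgeR's quasi-likelihood test asked whether it departed from no change. Fold changes are log2 of Mcph1KO over WT, given ± SE, and a gene was called at a Benjamini-Hochberg adjusted p under 0.05 over all genes tested. In bulk tissue, fewer cells of a type and less RNA per cell cannot be told apart.

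The targeted gene was not reduced in the libraries labelled Mcph1KO. Mcph1 (chr8:18595131-18803189 in GRCm38) had 12.2 and 13.2 CPM in Mcph1KO cortex against 12.5 and 10.1 CPM in WT at E17.5. At P4 it had 14.7 and 13.4 CPM in Mcph1KO against 12.3 and 10.7 CPM in WT. At A6w the values were 16.2 and 16.6 CPM in Mcph1KO and 9.66 and 9.02 CPM in WT, and at A18w they were 13.9 and 11.7 CPM in Mcph1KO and 8.36 and 9.72 CPM in WT. The Mcph1KO libraries lay above both WT libraries at 3 stages and overlapped with them at E17.5, and 7 of the 8 pairs were higher in Mcph1KO. The log2 fold change was 0.44 ± 0.11, with an adjusted p of 0.536 in edgeR. When the genotype labels were swapped within pairs in every possible way, a two-sided exact permutation test gave p = 0.0156, where the smallest p possible was 0.00781. Counts over a whole gene do not show which exons the reads covered, and a gene total cannot tell an altered transcript from an intact one. Genotypes are therefore written as labelled throughout.

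The genes on either side of Mcph1 moved little. Csmd1, a large membrane protein gene, differed by -0.01 ± 0.09, and Angpt2, the vascular ligand gene that lies within the span of Mcph1, by -0.11 ± 0.15. Agpat5, an acyltransferase gene on the other side, had 51.0 CPM at the lowest, 60 at the median and 81.7 at the highest in the 8 Mcph1KO libraries, against 54.3, 69.7 and 93.6 CPM in WT. It was lower in Mcph1KO in all 8 pairs, by a log2 value of -0.18 ± 0.06, but did not pass the test (adjusted p = 1 in edgeR).

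Across the transcriptome the genotypes were close. Of the 19199 genes tested, 82.7% had a fold change within 0.25 log2 units of 0, and among the 15447 genes that averaged at least 1 CPM the share was 91.4%. The median log2 fold change over all genes was 0.00, and the median SD of a gene's 8 pair differences was 0.34. The test called 16 genes, 0.0833% of those tested, of which 14 were higher (0.0729%) and 2 lower (0.0104%) in Mcph1KO. Without the block of stage and number it called 13 (0.0677%), of which 12 were among the 16. At an unadjusted p under 0.05 there were 571 genes (2.97%). All 8 pairs moved up in Mcph1KO for 87 genes (0.453%) and down for 49 genes (0.255%), and 49.2% of all genes had a fold change above 0. The called genes fell into a few groups. Protocadherins of chromosome 18 made up 6 of the 16, genes of a 4.5 Mb stretch of chromosome 12 made up 4, and the rest were single genes on chromosomes 1, 2, 3, 5, 8 and Y.

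**Figure D1:**
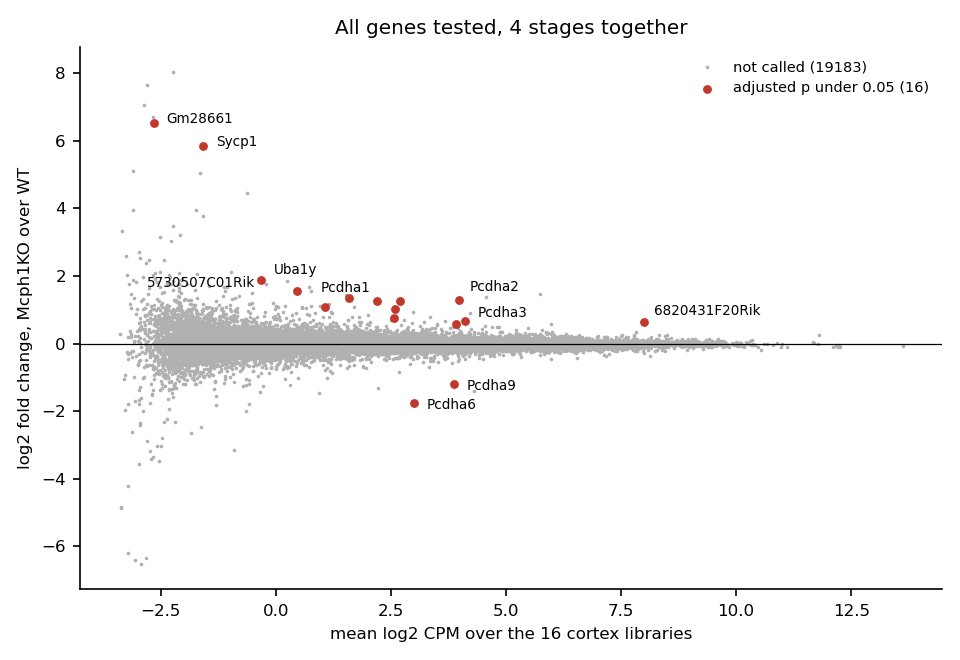
Log2 fold change of Mcph1KO over WT (vertical axis) against mean log2 CPM over the 16 cortex libraries (horizontal axis) for the 19199 genes tested, with the 16 called genes in colour. Most points lie close to 0, and the called genes are spread over low and middle levels.

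**Figure D2:**
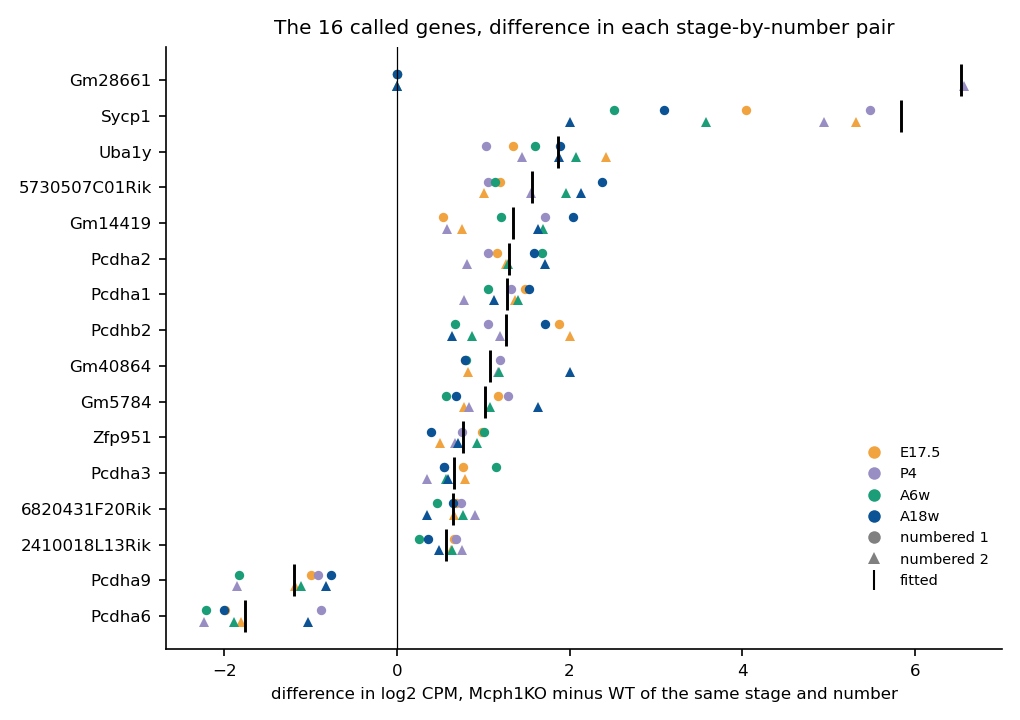
Difference in log2 CPM (prior count 2) between the Mcph1KO and the WT library of each stage and number for the 16 called genes, with the fitted fold change as a bar. All 8 pairs lie on 1 side of 0 for each gene except Gm28661, where 1 pair stands alone; pair differences of Sycp1 lie below its fitted value because the WT counts were 0 or close to 0.

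The strongest calls were in the clustered protocadherins. These are neuronal adhesion proteins encoded in alpha, beta and gamma clusters. In the alpha and gamma clusters, each variable first exon has its own promoter and is spliced to exons shared by the whole cluster, and a neuron uses only some of the first exons, which lets neurons tell their own branches from those of others. Promoter choice in the alpha cluster is known to depend on DNA methylation, CTCF and cohesin.

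Pcdha2 was the gene with the smallest p of all. At E17.5 it had 28.1 and 35.4 CPM in Mcph1KO against 12.5 and 14.8 CPM in WT, and at P4 it had 51.0 and 58.4 CPM in Mcph1KO against 24.4 and 33.2 CPM in WT. At A6w it had 17.3 and 16.5 CPM in Mcph1KO against 5.36 and 6.69 CPM in WT, and at A18w it had 12.3 and 14.2 CPM in Mcph1KO against 4.04 and 4.26 CPM in WT. Both Mcph1KO libraries stood above both WT libraries at every stage. The log2 fold change was 1.30 ± 0.11, or 2.47-fold, with an adjusted p of 0.000675 in edgeR. Its 8 pair differences ran from 0.81 to 1.71.

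Its neighbours on either side rose with it. Pcdha1 had 5.63 CPM at the lowest, 8.82 at the median and 16.3 at the highest in Mcph1KO, against 1.96, 3.46 and 8.89 CPM in WT, a 2.41-fold rise (log2 1.27 ± 0.11, edgeR adjusted p = 0.000702). Pcdha3 had 9.17, 22.8 and 43.5 CPM in Mcph1KO against 6.29, 13.2 and 33.3 CPM in WT, a 1.58-fold rise (log2 0.66 ± 0.09, edgeR adjusted p = 0.0106). Both genes were apart at all 4 stages. In edgeR, Pcdha3 was no longer called when either E17.5 library numbered 1 was left out (adjusted p = 0.0639 without the Mcph1KO library and 0.0618 without the WT library), with a fold change of 0.65 in both fits. It was also lost without E17.5 as a whole (0.29) or A18w (0.112), in fits of 12 libraries.

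Of the 16 called genes, those that fell were Pcdha6 and Pcdha9, further along the same cluster. Pcdha6 had 3.56 and 4.12 CPM in Mcph1KO against 14.3 and 14.6 CPM in WT at E17.5, and 13.6 and 5.92 CPM in Mcph1KO against 25.2 and 28.0 CPM in WT at P4. It had 2.27 and 2.99 CPM in Mcph1KO against 10.8 and 11.3 CPM in WT at A6w, and 2.63 and 5.19 CPM in Mcph1KO against 10.8 and 10.7 CPM in WT at A18w. The genotypes did not overlap at any stage, and Pcdha6 fell to 0.295 of the WT level (log2 -1.76 ± 0.17, edgeR adjusted p = 0.00115). Pcdha9 had 4.48, 8.32 and 24.6 CPM at the lowest, median and highest in Mcph1KO against 12.2, 16.8 and 59.8 CPM in WT. It was likewise apart at every stage, at 0.438 of the WT level (log2 -1.19 ± 0.13, edgeR adjusted p = 0.0041), though its adjusted p was 0.0645 without E17.5. Pcdha1, Pcdha2 and Pcdha6 kept their calls with any 1 stage left out. Each lost its call in the fits with libraries of 1 number only.

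The alpha cluster as a whole did not shift. Its 14 tested members summed to 304 CPM in Mcph1KO and 295 CPM in WT, and the 8 pair differences of the sum averaged 0.06 on the log2 scale (SD 0.09, range -0.11 to 0.20). Pcdha1, Pcdha2 and Pcdha3 together held 20.9% of the cluster's CPM in Mcph1KO (SD 6.68, range 13.3 to 29.5 over 8 libraries) and 10.9% in WT (SD 4.17, range 6.28 to 15.8). Pcdha6 and Pcdha9 together held 5.09% in Mcph1KO (SD 1.94, range 2.41 to 8.96) and 13.5% in WT (SD 3.44, range 9.41 to 17.7), without overlap between the genotypes. The other 9 members held 74.1% in Mcph1KO and 75.5% in WT. These shares restate the called genes and were not tested.

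None of those 9 members was called. Pcdha4, the next first exon after Pcdha3, had a log2 fold change of 0.52 ± 0.14 (edgeR adjusted p = 0.736) and was higher in Mcph1KO in 6 of 8 pairs. Pcdha8, at under 4 CPM on average in both genotypes, had 0.92 ± 0.36. The values were 0.08 ± 0.13 for Pcdha5, 0.04 ± 0.10 for Pcdha7, 0.01 ± 0.14 for Pcdha11 and -0.10 ± 0.08 for Pcdha12. A second gene ID that the annotation also names Pcdha11 had 0.22 ± 0.10. The C-type members at the end of the cluster, which neurons use more uniformly, had -0.20 ± 0.12 for Pcdhac1 and -0.13 ± 0.08 for Pcdhac2. The reading of single members is limited by sequence shared between them: 61.7% to 73.6% of the 31-base words of the 5 called alpha genes occur in another gene too, mostly another alpha gene, so the authors' estimate had to divide many reads between first exons. A gain of 1 member at the cost of another by that division was not tested.

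**Figure D3:**
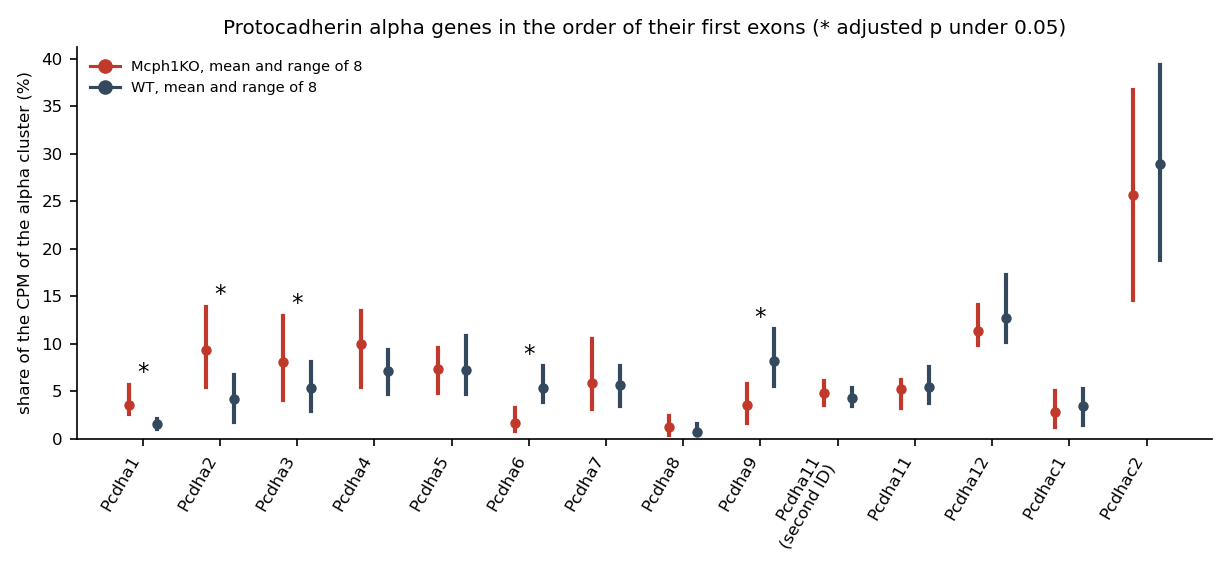
Share of the alpha cluster's CPM (percent) held by each of its 14 tested members, in the order of their first exons, as the mean and range of 8 Mcph1KO and 8 WT libraries. The means of Pcdha1, Pcdha2 and Pcdha3 lie higher and those of Pcdha6 and Pcdha9 lower in Mcph1KO. The ranges of the genotypes overlap for every member except Pcdha1 and Pcdha6.

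The beta cluster, whose genes are single exons without a shared part, moved in 1 direction in its fold changes but with a single call. All 22 tested members had a fold change above 0, against 49.2% of all genes, with a median of 0.23 against 0.00. An unadjusted p under 0.05 was found for 10 of the 22, against 2.97% of all genes. Their sum was 218 CPM in Mcph1KO (range 171 to 292) and 176 CPM in WT (115 to 217). The pair differences of the sum averaged 0.32 on the log2 scale (SD 0.25), and 7 of 8 were above 0. By stage the sum was 203 CPM in Mcph1KO and 130 CPM in WT at E17.5. It was 254 CPM in Mcph1KO and 211 CPM in WT at P4, 202 CPM in Mcph1KO and 188 CPM in WT at A6w, and 213 CPM in Mcph1KO and 175 CPM in WT at A18w.

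Pcdhb2 was the called member. It had 3.99, 7.06 and 13 CPM at the lowest, median and highest in Mcph1KO against 1.55, 2.39 and 7.06 CPM in WT, and rose 2.40-fold (log2 1.26 ± 0.18, edgeR adjusted p = 0.0187). The genotypes were apart at E17.5 and P4 and overlapped at A6w and A18w, where the libraries numbered 2 ran higher than those numbered 1 in both genotypes. Without the block of stage and number the adjusted p was 0.757. The call was also lost without any 1 of 10 libraries (adjusted p up to 0.0701). These were both numbered 1 at E17.5, all 4 at P4, both numbered 2 at A6w and both numbered 1 at A18w. Leaving out either library of a pair takes that pair out of the genotype difference. With any 1 stage left out the adjusted p ran from 0.0593 to 0.187. Pcdhb1, a neighbour at the start of the cluster, was near the limit of detection, with 1 to 27 counts per library and 105 in all in Mcph1KO against 0 to 4 per library and 11 in all in WT. It was higher in all 8 pairs but not called (edgeR adjusted p = 0.0821), and its fold is not given because it depends on the prior count. Pcdhb10, Pcdhb11, Pcdhb13 and Pcdhb14 were also higher in all 8 pairs, at log2 values of 0.63, 0.60, 0.41 and 0.51, with adjusted p values from 0.396 to 1 in edgeR. Pcdhb3, at 0.80, had an adjusted p of 0.199 in edgeR. These 5 were chosen after their values were seen.

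The gamma cluster gave no call among 22 tested members in edgeR, and 4 had an unadjusted p under 0.05, against 2.97% of all genes. Its sum was 873 CPM in Mcph1KO and 902 CPM in WT, with pair differences that averaged -0.05 (SD 0.17) and a median fold change of -0.07. Among its members of highest CPM, Pcdhgc3 had 0.01 ± 0.10 and Pcdhgc4 -0.21 ± 0.17.

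On chromosome 12, 4 called genes lay between 18514510 and 23010284, a stretch of lincRNAs, pseudogenes and clone-named genes. Of these, Gm5784, a lincRNA, had 4.02, 8.58 and 20.8 CPM at the lowest, median and highest in Mcph1KO against 1.76, 3.86 and 9.37 CPM in WT, a 2.03-fold rise (log2 1.02 ± 0.13, edgeR adjusted p = 0.0094). The lincRNA 2410018L13Rik had 7.69, 20.9 and 44.7 CPM in Mcph1KO against 5.93, 13.4 and 26.6 CPM in WT, a 1.49-fold rise (log2 0.57 ± 0.07, edgeR adjusted p = 0.0106). The protein-coding 5730507C01Rik had 0.804, 2.47 and 6.28 CPM in Mcph1KO against 0.176, 1.02 and 2.43 CPM in WT (log2 1.56 ± 0.22, edgeR adjusted p = 0.0187). Gm40864, a processed transcript, had 0.577, 4.46 and 9.21 CPM in Mcph1KO against 0.0879, 2.10 and 5.06 CPM in WT (log2 1.08 ± 0.16, edgeR adjusted p = 0.0277). All 8 pairs were higher in Mcph1KO for each, and the genotypes were apart at all 4 stages except for 2410018L13Rik, which was apart at 3.

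The promoters of 3 of these genes resemble each other, which is why they are shown. Each window runs from 250 bases before to 50 bases after the gene's start in RefSeq, on GRCm38.p6, with every CG dinucleotide in capitals.
5730507C01Rik, chr12:18514260-18514559, plus strand: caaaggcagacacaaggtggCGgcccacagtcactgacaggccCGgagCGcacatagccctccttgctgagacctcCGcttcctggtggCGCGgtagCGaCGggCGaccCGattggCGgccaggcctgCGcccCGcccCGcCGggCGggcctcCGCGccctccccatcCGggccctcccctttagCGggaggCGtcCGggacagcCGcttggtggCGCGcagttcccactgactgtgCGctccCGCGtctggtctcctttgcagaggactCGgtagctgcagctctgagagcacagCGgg
Gm5784, chr12:19387620-19387919, plus strand: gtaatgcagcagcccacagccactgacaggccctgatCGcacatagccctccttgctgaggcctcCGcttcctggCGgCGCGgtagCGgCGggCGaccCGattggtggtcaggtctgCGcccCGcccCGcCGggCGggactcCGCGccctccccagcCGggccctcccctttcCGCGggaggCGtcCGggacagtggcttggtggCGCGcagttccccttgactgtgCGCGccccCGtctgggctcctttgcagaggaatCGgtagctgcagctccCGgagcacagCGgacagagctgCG
2410018L13Rik, chr12:23010194-23010493, minus strand: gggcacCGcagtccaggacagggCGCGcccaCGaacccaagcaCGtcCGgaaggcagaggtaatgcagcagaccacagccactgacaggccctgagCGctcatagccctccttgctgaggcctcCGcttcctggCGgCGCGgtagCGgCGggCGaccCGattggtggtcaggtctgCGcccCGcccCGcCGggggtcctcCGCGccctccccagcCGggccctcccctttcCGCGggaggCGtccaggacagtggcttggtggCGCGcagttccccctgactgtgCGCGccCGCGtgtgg
The windows of Gm5784 and 5730507C01Rik were 84.6% identical in a global alignment, and that of 2410018L13Rik was 64.6% and 66.8% identical to them, whereas each was 44.8% to 51.2% identical to the windows of the other called genes Sycp1, Gm40864, Zfp951 and Uba1y. Relative to the stretch that the windows share, that of 2410018L13Rik begins further upstream, so its identity over whole windows also counts unmatched ends. The printed windows held 30, 30 and 31 CG dinucleotides, in the order shown. At least as many were found in 11.7% of 32851 RefSeq windows of that length for a count of 30 and in 10.6% for a count of 31, and the median was 7. The window of the fourth called gene, Gm40864, had 2. That window lies at 22597761-22598060, inside the annotated span of the gene (22585889-22623345), so it may not hold the start of the counted transcripts. No methylation value was used here.

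The stretch was then described as a whole, after its calls had been seen and without a test. Of its 41 tested genes, 31 had a fold change above 0 and the median was 0.57. In 11 of the 41, or 26.8%, all 8 pairs were higher in Mcph1KO, against 0.453% of all genes. An unadjusted p under 0.05 was found for 20, against 2.97% of all genes. The ordinary protein-coding genes inside it did not follow: Asap2 had -0.14, Itgb1bp1 0.03, Cpsf3 0.01, Iah1 0.02, Adam17 -0.10 and Ywhaq -0.02 on the log2 scale, none with an unadjusted p under 0.05. The genes with high values share sequence with each other, and 15 of the 41 have over 50% of their 31-base words in another gene. Single genes of the stretch may therefore exchange reads. For 3 of the 4 called genes the call, though not the fold change, depended on single pairs. Leaving out either library of a pair takes that pair out of the genotype difference. With each library left out in turn, the log2 fold change stayed between 0.54 and 0.61 for 2410018L13Rik, between 1.45 and 1.67 for 5730507C01Rik and between 1.00 and 1.14 for Gm40864. Leaving out either E17.5 library numbered 1, P4 library numbered 2 or A6w library numbered 2 ended the calls of 2410018L13Rik (adjusted p up to 0.0701), 5730507C01Rik (up to 0.0715) and Gm40864 (up to 0.132). Those of 5730507C01Rik were also lost without either A18w library numbered 2 (up to 0.0544), and those of Gm40864 without either E17.5 library numbered 2, P4 library numbered 1 or A18w library numbered 1 (up to 0.112). Gm40864 had an adjusted p of 0.122 without the block of stage and number, while Gm5784 kept its call without any single library (up to 0.0467). With 1 whole stage left out, the calls of 5730507C01Rik and Gm40864 were lost each time (adjusted p from 0.0883 to 0.465), and those of Gm5784 and 2410018L13Rik each time except without A6w (from 0.0642 to 0.316).

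**Figure D4:**
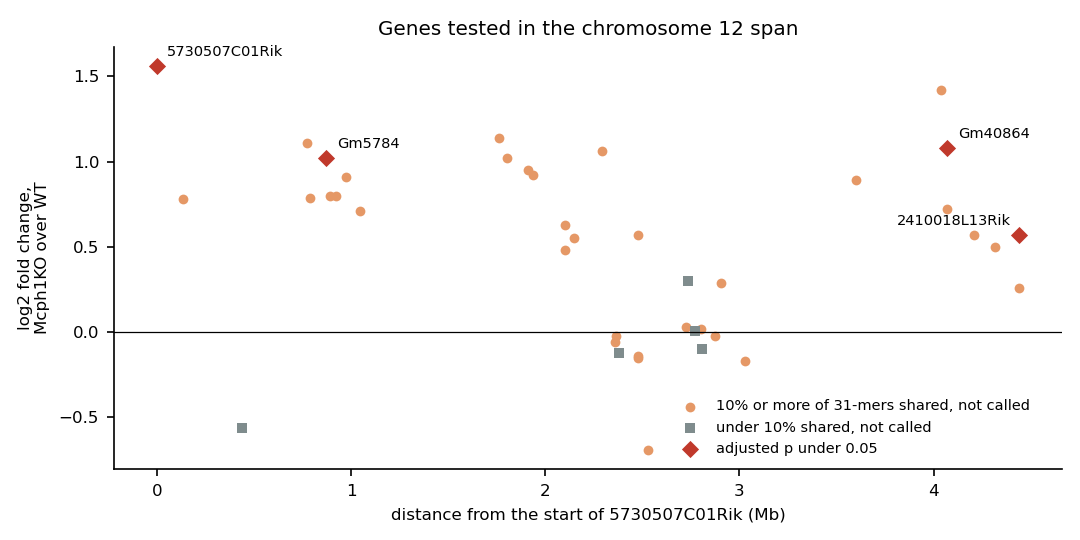
Log2 fold change of Mcph1KO over WT for the 41 tested genes of the chromosome 12 stretch, by distance from the start of 5730507C01Rik in Mb, with called genes and the extent of shared 31-base words marked. The high values lie at both ends, and the protein-coding genes between them lie near 0.

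Sycp1 encodes the transverse filament of the synaptonemal complex, which joins homologous chromosomes in meiosis, and is normally a germ-cell gene. It had 39 and 79 counts in Mcph1KO at E17.5, 97 and 61 at P4, 10 and 19 at A6w, and 13 and 25 at A18w. In WT it had 0 counts in 7 libraries and 5 in the A18w library numbered 2. The sums were 343 counts in Mcph1KO and 5 in WT, and the genotypes were apart at every stage (edgeR adjusted p = 0.00861). The fitted fold depends on the prior count and is not given. Without the A18w library numbered 2 of Mcph1KO the adjusted p was 0.0578, and without that of WT it was 0.0529. Without E17.5 it was 0.132, without P4 0.141 and without A18w 0.112. Its highest level was still low, and 15.6% of its 31-base words also occur elsewhere, mostly in the pseudogene Sycp1-ps1. The start of Sycp1 lies in a window with 21 CG dinucleotides, a count that 24.8% of RefSeq windows reach; it is printed because germ-cell genes with such starts are commonly silenced by DNA methylation in somatic tissue.
Sycp1, chr3:102936051-102936350, minus strand: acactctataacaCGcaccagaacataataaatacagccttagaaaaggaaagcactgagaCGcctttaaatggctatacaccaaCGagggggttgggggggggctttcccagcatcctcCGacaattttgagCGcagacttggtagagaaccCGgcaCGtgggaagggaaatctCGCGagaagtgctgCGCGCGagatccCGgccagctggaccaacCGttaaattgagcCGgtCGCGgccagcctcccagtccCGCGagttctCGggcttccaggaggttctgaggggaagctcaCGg
Other genes of meiosis and the germ line did not pass the test. Of 27 in the list, 14 had enough counts, 1 was called, which was Sycp1, and the median log2 fold change was 0.09. Rec8, a meiotic cohesin, had 0.28, 1.48 and 5.39 CPM at the lowest, median and highest in Mcph1KO against 1.17, 3.19 and 6.13 CPM in WT, with overlap between the genotypes and an adjusted p of 1 in edgeR. Dazl, a germ-cell RNA-binding protein gene, had 0.15 ± 0.23. The 14 tested genes of DNA methylation and its readers gave no call and had a median of -0.01, with -0.02 ± 0.07 for the methyltransferase gene Dnmt3a.

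On the Y chromosome, Uba1y encodes a ubiquitin-activating enzyme that is known mainly from the testis. It had 0.854 and 1.46 CPM in Mcph1KO against 0.293 and 0.212 CPM in WT at E17.5, and 1.74 and 1.34 CPM in Mcph1KO against 0.817 and 0.446 CPM in WT at P4. The values were 1.01 and 1.62 CPM in Mcph1KO and 0.284 and 0.327 CPM in WT at A6w, and 1.94 and 1.33 CPM in Mcph1KO and 0.470 and 0.308 CPM in WT at A18w. Every Mcph1KO library was above every WT library, a 3.65-fold rise (log2 1.87 ± 0.24, edgeR adjusted p = 0.0094), and the adjusted p was 0.0501 without the A6w Mcph1KO library numbered 2. It was 0.132 without E17.5, 0.115 without A6w and 0.161 without A18w. Its X-linked copy Uba1 had 317, 491 and 735 CPM in Mcph1KO against 291, 522 and 781 CPM in WT (log2 -0.01 ± 0.05). The broadly expressed Y-linked genes had values below 0 without a call, with -0.13 ± 0.07 for Ddx3y, -0.09 ± 0.08 for Kdm5d and -0.08 ± 0.11 for Eif2s3y. Of the 31-base words of Uba1y, 61.6% occur in another gene, most of them in the pseudogene Gm2098.

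Zfp951, a zinc finger protein gene on chromosome 5, was the called gene with the least shared sequence, at 7% of its 31-base words. It had 4.18, 8.26 and 11.3 CPM at the lowest, median and highest in Mcph1KO against 2.92, 4.62 and 6.68 CPM in WT. The genotypes were apart at every stage, with a 1.69-fold rise (log2 0.76 ± 0.11, edgeR adjusted p = 0.0187). The call was lost without any 1 of 12 libraries, namely either library of every pair except number 2 at E17.5 and number 1 at A18w. Leaving out either library of a pair takes that pair out of the genotype difference. Adjusted p values ran up to 0.110, while the fold change stayed between 0.72 and 0.77 in those fits. With any 1 stage left out the adjusted p ran from 0.112 to 0.29.

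Near the targeted locus, 6820431F20Rik was the called gene of chromosome 8. It is a transcribed pseudogene that begins 1.46 Mb beyond the end of Mcph1. At E17.5 it had 539 and 477 CPM in Mcph1KO against 336 and 301 CPM in WT, and at P4 it had 694 and 754 CPM in Mcph1KO against 417 and 402 CPM in WT. At A6w it had 165 and 175 CPM in Mcph1KO against 119 and 103 CPM in WT, and at A18w it had 158 and 176 CPM in Mcph1KO against 101 and 138 CPM in WT. All stages were apart, with a 1.57-fold rise (log2 0.65 ± 0.07, edgeR adjusted p = 0.00204), and the adjusted p was 0.0645 without E17.5. The related pseudogene 2610005L07Rik had 29.9, 82.0 and 172 CPM in Mcph1KO against 25.6, 51.7 and 113 CPM in WT, and Nek3, a kinase gene that shares none of its 31-base words, had 1.71, 3.98 and 9.19 CPM in Mcph1KO against 0.909, 2.21 and 5.53 CPM in WT. Both were higher in all 8 pairs without a call (adjusted p = 0.167 and 0.199 in edgeR) and were chosen after their values were seen. The pseudogenes Gm6483 (log2 -1.23, adjusted p = 0.353) and Gm21092 (log2 -0.88, adjusted p = 0.107) of the same stretch were lower in all 8 pairs in the edgeR fit and were not called.

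Genes within 5 Mb of Mcph1 had a median close to that of all genes but more one-sided members. Of 59 tested there, 5 were higher in Mcph1KO in all 8 pairs (8.47%, against 0.453% of all genes), and the median fold change was 0.01. Lower in all 8 pairs were 3, against 0.255% of all genes. The 5 were Gm16425, Gm40466, 6820431F20Rik, 2610005L07Rik and Nek3, and the 3 were Agpat5, Gm6483 and Gm21092. All but Nek3 and Agpat5 lie between 19535454 and 20582771, with 21.9% to 93.3% of their 31-base words in another gene. From 5 to 10 Mb away the share that was higher in all 8 pairs was 2.08% of 96 genes, from 10 to 20 Mb it was 2.94% of 68, and from 20 to 40 Mb it was 0 of 78. The distances were chosen after values were seen and carry no test. By chromosome, all 8 pairs moved the same way for 1.94% of the tested genes of chromosome 8, 2.42% of chromosome 12 and 2.64% of chromosome 18, against 0.708% of all genes.

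The last 2 called genes share nearly all of their sequence with other genes. Gm14419, a protein-coding gene of chromosome 2, had 0.766, 5.94 and 12.6 CPM at the lowest, median and highest in Mcph1KO against 0.424, 2.14 and 4.59 CPM in WT (log2 1.34 ± 0.19, edgeR adjusted p = 0.0187). It was higher in all 8 pairs, and 96.4% of its 31-base words occur in other genes, most in Gm14295. Within 1 Mb of it, 26 of 27 tested genes had a fold change above 0, with a median of 0.24, and all 27 share over 50% of their words. The genotypes were apart at 3 stages, the adjusted p was 0.148 without the block of stage and number, and the call was lost without either P4 library numbered 1, A6w library numbered 2 or A18w library of either number (adjusted p up to 0.0960) or with any 1 stage left out (0.0598 to 0.376). Gm28661, a nuclear pseudogene on chromosome 1 whose 31-base words all occur in the mitochondrial gene mt-Co2 too, had 8989 counts in the P4 Mcph1KO library numbered 2, against 98 in the WT library of that stage and number and 0 in the other 14 libraries. Its adjusted p was 0.0094 in edgeR and 1 without either of those 2 libraries, with a fold change of 0.00.

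**Figure D5:**
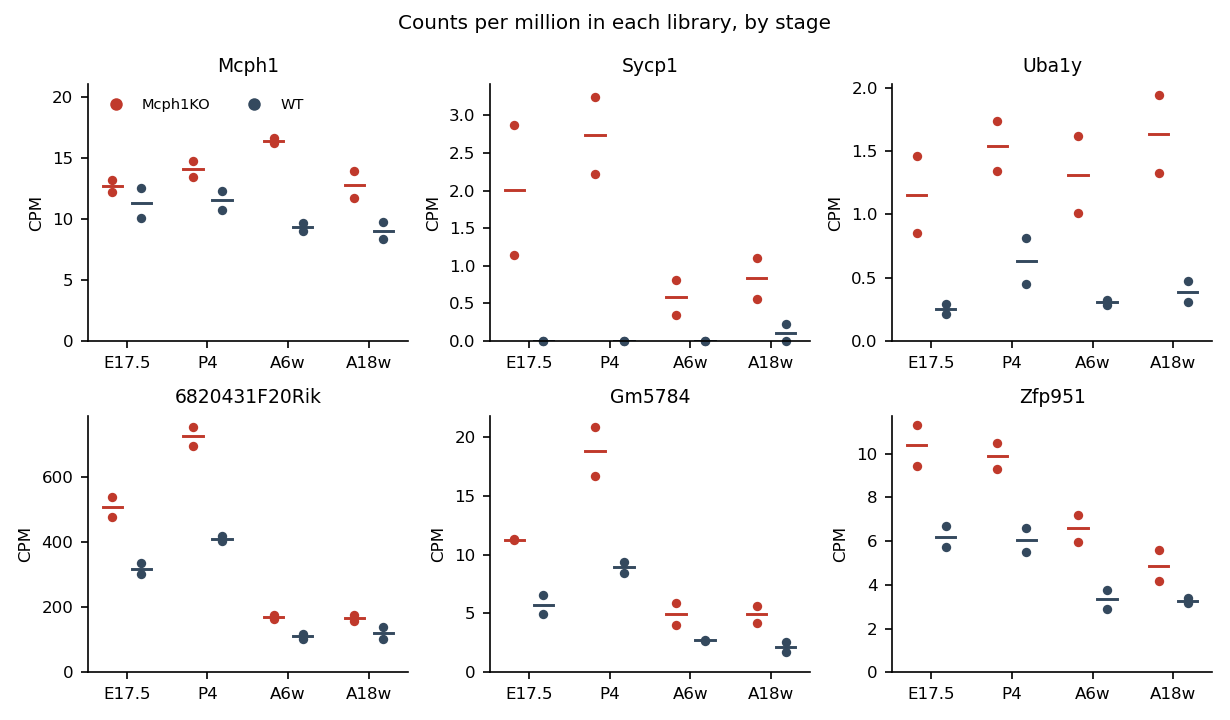
CPM in each library for Mcph1, Sycp1, Uba1y, 6820431F20Rik, Gm5784 and Zfp951, by stage, with Mcph1KO left of WT and a bar at the mean of 2 libraries. The genotypes are apart at every stage for all but Mcph1, which overlaps at E17.5.

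By sequence, 10 of the 16 called genes (62.5%) had over 50% of their 31-base words in another gene, against 7.18% of all genes tested. Genes whose libraries were apart at every stage numbered 21 with Mcph1KO above WT (0.109% of those tested) and 8 with Mcph1KO below WT (0.0417%), and 12 of these 29 were called. The part of read division between similar genes in the calls was not tested beyond leaving such genes out. Without genes over 50%, edgeR called 6 of the 17796 left, all higher in Mcph1KO, and without those over 10% it called 0 of 14017, with 372 at an unadjusted p under 0.05. The called genes Zfp951 and Pcdhb2 remained among those 14017 with unchanged fold changes of 0.76 and 1.26, but neither passed the test there.

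Some genes were higher or lower in all 8 pairs without passing the test. The 6 of largest fold change above 0, among genes that averaged at least 1 CPM in 1 genotype or both, were Gm2004 (log2 1.12), Gm5953 (1.11), B430203G13Rik (0.96), Slmapos2 (0.94), Fut4 (0.91) and Gm10557 (0.85), with adjusted p values from 0.133 to 1 in edgeR. Fut4, a fucosyltransferase gene, had 0.215, 1.02 and 1.94 CPM at the lowest, median and highest in Mcph1KO against 0.0728, 0.579 and 1.24 CPM in WT. The 6 below 0 were Gm6483, AC165962.3 (-0.96), Gm21092, A930015D03Rik (-0.85), Fut10 (-0.85) and Tekt2 (-0.70). All 31-base words of Gm2004 occur in the called Gm14419, and 89.3% of those of Gm10557 in the called 6820431F20Rik. Gm5953 lies in the chromosome 12 stretch. All words of AC165962.3 occur in Glo1, and 90.1% of those of A930015D03Rik in H2-T22. For Gm21092 82.1% and for Gm6483 50.8% occur in 2610005L07Rik. The shared percent was 1.3% for B430203G13Rik, 8.92% for Slmapos2, 16.9% for Tekt2, 0% for Fut4 and 0.0198% for Fut10. Fut10, another gene of the fucosyltransferase family, on chromosome 8, had 2.45, 4.19 and 8.70 CPM in Mcph1KO against 5.87, 9.11 and 11.2 CPM in WT and was apart at every stage (edgeR adjusted p = 0.67).

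Lists of genes tied to the known functions of MCPH1 gave no call. Of 25 tested primary microcephaly genes, none was called in edgeR, 15 had a fold change above 0 and the median was 0.03. The highest log2 fold change of that list, 0.44, equals that of Mcph1 itself. An unadjusted p under 0.05 was found for 2 of the 25, against 2.97% of all genes. The 8 condensin subunits gave no call and a median of 0.02, with 0.02 ± 0.13 for Smc4, 0.14 ± 0.10 for Smc2 and 0.02 ± 0.06 for Ncaph2, a subunit of condensin II. The 12 genes of cohesin and CTCF had a median of -0.02 and no call, with -0.06 ± 0.06 for Ctcf. For 26 mitosis genes the median was 0.00, with 0.07 ± 0.18 for the proliferation marker Mki67, and for 21 S phase genes it was 0.01. The 20 DNA damage response genes had a median of 0.02 and the 18 p53 targets one of 0.05, and none of these 4 lists held a called gene or a gene with an unadjusted p under 0.05 in edgeR. The SE of most of these genes leaves room for small changes, so the values bound the size of a change rather than exclude one.

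Neuronal and glial lists gave no call either in edgeR. Over all genes the median was 0.00, 49.2% were above 0 and 2.97% had an unadjusted p under 0.05. The 9 markers of intermediate progenitors all had values above 0, with a median of 0.17 and 2 at an unadjusted p under 0.05. Their sum was 326 CPM in Mcph1KO and 313 CPM in WT on average. Their median in single pairs ran from -0.09 to 0.65, with 5 of 8 above 0. Among 12 markers of upper-layer neurons, 1 had a value above 0 and the median was -0.11. In single pairs the median of these 12 ran from -0.31 to 0.09, with 2 of 8 above 0. The 14 deep-layer markers had a median of 0.05, with 0.01 ± 0.06 for Tbr1, and 13 radial glia markers one of -0.03. The 17 interneuron genes had a median of 0.06 and ran from -0.72 to 0.59, with 4 at an unadjusted p under 0.05. The medians were -0.03 for 14 astrocyte genes and 0.15 for 16 microglia genes, and 14 of the 16 had values above 0. The microglia median in single pairs ran from -0.12 to 0.63, with 4 of 8 above 0.

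Myelin genes had values below 0 in all 18 members, with a median of -0.28, and none was called. An unadjusted p under 0.05 was found for 7 of the 18, against 2.97% of all genes. Mobp, a myelin component, had a median of 322 CPM in Mcph1KO and 313 CPM in WT, with a highest value of 773 CPM in Mcph1KO against 1780 CPM in WT, and a log2 fold change of -0.56 ± 0.23 (adjusted p = 1 in edgeR). The list's summed level ran from 92.7 to 6260 CPM in Mcph1KO and from 99.2 to 12300 CPM in WT. The median of the list was not one-sided over the pairs: it was 0.00 and 0.14 at E17.5, -0.05 and -0.44 at P4, -0.79 and 0.24 at A6w, and -0.83 and -0.31 at A18w. Immediate-early genes, which neuronal activity induces, had values above 0 in 16 of 18 members and a median of 0.22, with 3 at an unadjusted p under 0.05 and no call. Their median was 1.49 and 0.87 in the A6w pairs and between -0.41 and 0.38 in the other 6.

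Markers of tissue next to the cortex varied between libraries more than between genotypes. The 14 choroid plexus genes all had values below 0, with a median of -0.70 and no call in edgeR. Their summed level ran from 9.17 to 826 CPM in Mcph1KO and from 10.7 to 1030 CPM in WT. Ttr, the main choroid plexus transcript, ran from 0 to 736 CPM in Mcph1KO and from 0.799 to 899 CPM in WT. The median of the list in single pairs ran from -2.97 to 2.60, with 3 of 8 above 0. The 12 tested genes of thalamus and hypothalamus had a median of -0.28 and summed to 116 to 574 CPM in Mcph1KO and 139 to 575 CPM in WT, the 12 of hippocampus had a median of -0.16, and the 13 of meninges 0.05. The 12 striatum genes had a median of 0.01 and summed to 294 to 2510 CPM in Mcph1KO and 268 to 3160 CPM in WT. In the A18w libraries numbered 1, the striatal marker Ppp1r1b had 714 CPM in Mcph1KO and 933 CPM in WT. In those numbered 2 it had 271 CPM in Mcph1KO and 193 CPM in WT. None of these lists held a called gene, and their part in the values of other genes was not tested.

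Whether the genotype difference varied with stage was asked in a fit with 1 genotype difference per stage. Genotype by stage passed the test for 9 genes, 0.0469% of those tested, and 1004 (5.23%) had an unadjusted p under 0.05. All 9 were processed pseudogenes, none was among the 16 genes called over all stages, and each shares over 50% of its 31-base words with another gene, at a median of 95.6%. They had 0 counts in up to 13 of the 16 libraries, and their highest counts ran from 406 to 9415. Gm5641, a copy of Hnrnpa3, reached 9415 counts in Mcph1KO and 8141 in WT and had 0 in 8 libraries (edgeR adjusted p = 0.00128). Among the genes called over all stages, Pcdha2 and Sycp1 had unadjusted p values for genotype by stage of 0.0405 and 0.0491 in edgeR.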

How the data were processed

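Bulk RNA sequencing measured 16 cortex libraries, and the groups and replicate numbers come from the labels alone. Each gene has an estimated count in the deposited table. The submitters' processing notes name Trimmomatic 0.39, FastQC, Salmon 1.4.0 and GRCm38.p6 as the tools and build the authors used. The annotation release is not given in the sources used here. Such estimates divide reads that fit several genes. Values were whole numbers, and GENCODE mouse release M21 gave symbols and positions for 54107 of 54281 gene IDs (174 unmatched).

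Genes were filtered (filterByExpr, minimum count 10, minimum total 15), scaled by TMM and fitted with edgeR 4.0.16 in R 4.3.3 as 8 stage-by-number blocks plus genotype (7 residual degrees of freedom, biological coefficient of variation 0.185). Genotype by stage used 4 residual degrees of freedom. SE is the log2 fold change divided by the square root of F. The main edgeR tests, over all stages and of genotype by stage, are quasi-likelihood F tests with Benjamini-Hochberg adjustment over 19199 genes, called at 0.05. Alternative fits were adjusted over the genes that each of them tested. DESeq2 used its own tests, and Mcph1 also had the exact permutation test. The fit was tested on simulated data. The block follows the rule of the comparison.

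Shared sequence is the percent of a gene's 31-base words, on either strand, found in another gene's M21 transcripts. Promoters are RefSeq windows on GRCm38.p6, aligned end to end with Biopython 1.88, and 7 of the 16 called genes had one. Strandedness is not stated, so overlapping and antisense genes are uncertain.

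Genes were named by rule: Mcph1, its neighbours and Angpt2; called genes, up to 20 of smallest adjusted p per direction; the 6 largest uncalled changes per direction with all 8 pairs one way; up to 10 called for genotype by stage; up to 4 members per list, called first and then by CPM; all alpha protocadherins; and close copies of called genes. The members, lists and tests were chosen with earlier results of these data known. Alternatives were other scalings, filters, DESeq2 1.42.0, no block, 1 mean per group, single numbers, and each stage or library left out; leaving out genes by shared words was added after seeing the data.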

Additional observations from a re-analysis of the deposited data

Results flagged for a closer look

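Of 37 genes whose 8 pair differences were examined for a single value far from the others, 2 stood out, and chance alone flags about 1 in 20 such groups. For Gm28661 the pair numbered 2 at P4 differed by 6.57 on the log2 scale, and the next pair by 0.00. For Gm40864 the pair numbered 2 at A18w differed by 2.01, and the next by 1.19.

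In 9 genes the genotype difference varied between stages by the test of genotype by stage itself, with edgeR adjusted p values of 0.00128 for Gm5641, 0.0038 for Gm9825, 0.00944 for Atp6v0c-ps2, 0.00944 for Rpl34-ps1, 0.0107 for Morf4l1-ps1, 0.0161 for Rps2-ps10, 0.0161 for Gm10052, 0.0358 for Gm6166 and 0.0358 for Gm15501. All 9 are processed pseudogenes with 75.5% to 100% of their 31-base words in another gene, and the part of read division in these values was not tested.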

How the results depend on the processing

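The 16 calls over all stages became 16 with RLE or total-count scaling, 14 with a filter at a mean of 1 CPM and 13 without the replicate block (12 shared). The 14 higher and 2 lower calls became 60 without a filter on low counts (41 higher, 19 lower), and 35 with DESeq2 (28 higher, 7 lower, 15 shared). The count was 10 with 1 mean per group, 2 with libraries numbered 1 only (0 shared) and 3 with those numbered 2 only (1 shared, Gm28661). It was 4 without E17.5, 8 without P4, 10 without A6w and 7 without A18w. With genes over 50% or over 10% shared words left out it was 6 and 0 in edgeR, with 488 and 372 at an unadjusted p under 0.05. Leaving out each library in turn gave 9 to 17. It gave 10 without the E17.5 Mcph1KO or WT library numbered 1, 9 without the A6w Mcph1KO library numbered 2 and 10 without the A6w WT library numbered 2. Pcdha1, Pcdha2, Pcdha6, Pcdha9, 6820431F20Rik and Gm5784 kept their calls in each of those fits.

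Genotype by stage gave 9 calls, 812 without a filter, 87 with DESeq2, and 0 in edgeR without the replicate block (435 at an unadjusted p under 0.05), without genes over 50% shared words (997) or over 10% (812). Leaving out each library in turn gave 5 to 47, with 17 without either A6w library numbered 1, 47 and 46 without the A6w Mcph1KO and WT libraries numbered 2, and 5 without the A18w Mcph1KO library numbered 1. The fold change of Gm28661 was 0.00 without the P4 Mcph1KO or WT library numbered 2, and up to 6.55 without any other library.

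Mcph1 kept its direction under each alternative, at 0.38 to 0.51 with a pair left out (exact permutation p = 0.0156 to 0.0312). With a pair left out, the alpha sum ranged from 0.04 to 0.09, the beta sum from 0.27 to 0.37 and the gamma sum from -0.10 to -0.02. Beyond this, 1096 values of 37 genes were recomputed. Of these, 141 lost a call and 22 gained one, and 0 of 756 list medians moved by more than their spread. The 1 value counted as a change of direction was Gm28661 without the P4 Mcph1KO library numbered 2, at a fold change of 0.00. The deviations of libraries with the same number correlated at 0.478 at E17.5, 0.209 at P4, 0.0829 at A6w and 0.295 at A18w, which is above 0.1 at 3 of the 4 stages. The labels do not say what a number shares, so the numbers serve as blocks here because the comparison is defined that way. The cause of these changes was not tested. The count filter was applied again when libraries were left out, so the genes tested also changed. There were 20083 to 20269 with 1 library left out and 18503 to 19002 with 1 stage left out, against 19199. With 2 libraries per group, depth and replication limit what can be detected among genes of few counts.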
